A study of Mus musculus with 21 samples.

Results

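The fibroblast growth factor (FGF) ligands Fgf1, Fgf2, Fgf7, Fgf9, Fgf10 and Fgf18 and the receptors Fgfr1, Fgfr2, Fgfr3 and Fgfr4 were followed in mouse lung that grows after the removal of part of the lung. These 10 genes were chosen by name from the 19938 genes with a single symbol on the array, and each was measured by 1 probe set. The choice was made with earlier results of these data known. The mice were male C57BL/6, and right lung RNA was read on 21 Affymetrix arrays, with values given on the log2 scale. There were 7 conditions: unoperated lung at day 0, lung at 3, 7, 14, 28 and 56 days after the left lung was taken out (left pneumonectomy), and lung at 56 days after sham surgery. In every condition the medial lobe, the cardiac lobe and the whole right lung were read on 1 array each, which gives n = 3 arrays per condition. The labels name no genetic alteration and give no ages. Whether the 3 regions shared an animal or were pooled from several is not in the labels, so the p-values may measure technical spread, and the whole lung may include the lobes. Below, control means the 6 arrays of day 0 and sham, early the 6 arrays of days 3 and 7, and late the 9 arrays of days 14, 28 and 56.

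FGF ligands are secreted proteins that bind heparan sulfate in the matrix and activate receptor tyrosine kinases on neighbouring cells. The receptors recruit adaptors that switch on the RAS-MAPK cascade, which in turn induces ETS transcription factors and feedback inhibitors of the Sprouty family. In the developing lung, mesenchymal Fgf10 acting on epithelial Fgfr2 drives branching, and Fgf18, Fgfr3 and Fgfr4 are known for their part in the formation of alveoli.

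Promoter sequence was at hand for 8 of the 10 genes from RefSeq tables of build GRCm38.p6. The 250 bases upstream of the annotated start are shown for 4 genes on which the results turn, namely Fgf10, which was high after sham surgery, and Fgf18, Fgfr2 and Fgfr3, which were low at days 3 and 7. They are written 5′ to 3′ on the strand of the gene, with GC boxes (GGGCGG, either strand) in capitals. The window of Fgf10 is chr13:118714449-118714698 on the plus strand and that of Fgf18 is chr11:33147401-33147650 on the minus strand. The window of Fgfr2 is chr7:130266809-130267058 on the minus strand. The window of Fgfr3 is chr5:33721474-33721723 on the plus strand, the first of its annotated starts.
Fgf10: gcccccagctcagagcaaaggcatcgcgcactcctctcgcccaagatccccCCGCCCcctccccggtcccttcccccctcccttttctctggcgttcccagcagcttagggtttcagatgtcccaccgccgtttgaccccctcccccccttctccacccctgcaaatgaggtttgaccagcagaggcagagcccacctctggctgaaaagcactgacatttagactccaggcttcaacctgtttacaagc
Fgf18: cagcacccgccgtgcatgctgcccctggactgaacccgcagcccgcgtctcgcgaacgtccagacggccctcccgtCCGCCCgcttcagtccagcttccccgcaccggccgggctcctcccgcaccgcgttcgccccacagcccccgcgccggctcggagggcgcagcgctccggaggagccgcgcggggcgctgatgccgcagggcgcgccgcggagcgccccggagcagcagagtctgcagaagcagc
Fgfr2: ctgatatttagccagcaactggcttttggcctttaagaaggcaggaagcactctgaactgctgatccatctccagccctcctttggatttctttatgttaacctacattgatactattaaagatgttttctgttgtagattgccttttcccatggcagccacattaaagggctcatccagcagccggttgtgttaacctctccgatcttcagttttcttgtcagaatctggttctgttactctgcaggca
Fgfr3: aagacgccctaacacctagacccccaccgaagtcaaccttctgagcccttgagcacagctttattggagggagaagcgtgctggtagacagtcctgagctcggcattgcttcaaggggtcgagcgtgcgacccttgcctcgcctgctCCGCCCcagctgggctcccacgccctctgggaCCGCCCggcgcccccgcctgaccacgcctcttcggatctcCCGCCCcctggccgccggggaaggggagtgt
The windows differed in base composition, with a GC content of 77.2% for Fgf18, 66.8% for Fgfr3, 61.2% for Fgf10 and 44.0% for Fgfr2, against a median of 52.4% over 32851 promoters. GC boxes were found 3 times for Fgfr3, 1 time each for Fgf18 and Fgf10, and 0 times for Fgfr2, and 32.74% of all promoters held at least 1. The E-box CACGTG, present in 6.02% of all promoters, was found on neither strand of any member's window. The same held for the TATA box TATAAA, which 12.37% of promoters had. An ETS site with the letters CCGGAAGT was in 2.88% of promoters and in none of these windows. The glucocorticoid half-site AGAACA, in 16.08% of promoters, was absent from them too. A match is a description of the letters only.

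The lung identity of the samples was checked on Sftpc, Sftpb, Ager, Scgb1a1, Cdh5, Pecam1 and Foxj1, which were above the array median on 21 of 21 arrays. Array medians were 5.98 to 6.18 and correlations between arrays 0.963 to 0.996. The cardiac lobe array of day 7 stood apart, with an interquartile range of 3.55 against 3.73 to 3.86 on the other cardiac lobe arrays. So did the whole lung array of day 56 after pneumonectomy, with 3.39 against 3.51 to 3.76 on the other whole lung arrays. Over 59 small RNA genes the mean level was 7.77 to 9.84 on the whole lung arrays and 8.15 on the cardiac lobe array of day 7, against 6.90 to 7.48 on the other lobe arrays.

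Early after pneumonectomy, 6 of the 10 genes passed the limma test against both controls, 5 called lower and 1 higher (adjusted p under 0.05 over all 19938 genes, a threshold that 14.2% of all genes passed). The ligands Fgf1 and Fgf18 and the receptors Fgfr2 and Fgfr3 were 1.25-fold to 1.37-fold lower at days 3 and 7. Fgf9 was 1.23-fold higher. Fgf10 was called lower only through its high sham arrays, without a fall from day 0 (7.03 at day 0, 7.00 at day 3 and 7.07 at day 7), and is described separately. Over all genes 7.72% were called lower and 6.44% higher, and the median difference was 0.012, whereas that of the 10 members was -0.32. Of the 10 members, 3 passed the F test for any difference among the 7 conditions, namely Fgf1, Fgf10 and Fgfr3 (7.76% of all genes passed).

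**Figure D1:**
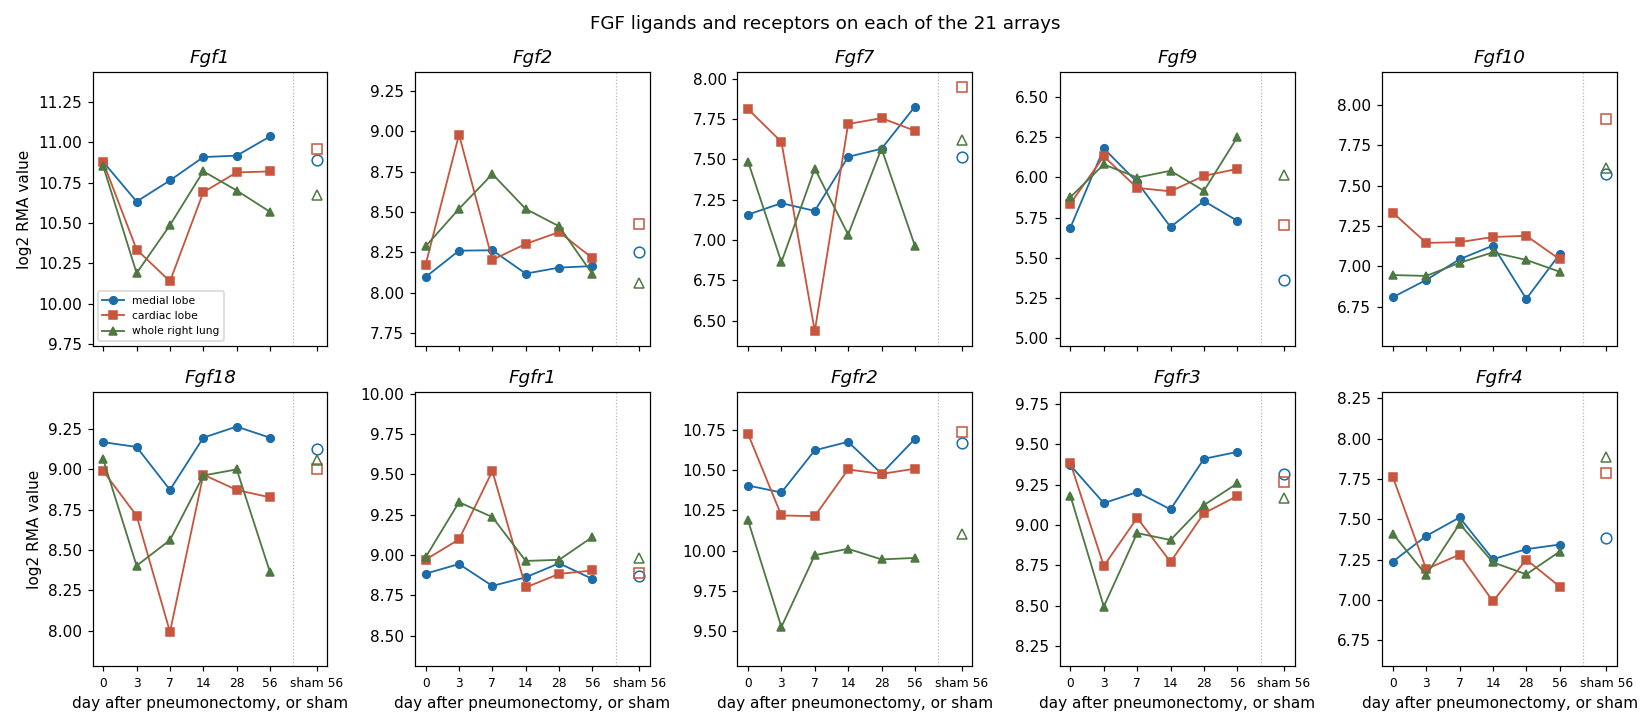
Log2 RMA value of each of the 10 FGF genes on each of the 21 arrays, by day after pneumonectomy, with the sham arrays of day 56 as open symbols on the right; each panel has its own y axis and each line joins the arrays of a region. Fgf1, Fgf18, Fgfr2 and Fgfr3 dip at days 3 and 7, mainly in the cardiac lobe and the whole lung, and the 3 sham values of Fgf10, 7.57 to 7.91, lie above its other 18 values.

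Fgf1, a ligand that can bind every FGF receptor, fell early and was then below its controls in every region. In the cardiac lobe its log2 value was 10.88 at day 0, 10.33 at day 3, 10.14 at day 7, 10.69, 10.81 and 10.82 at days 14, 28 and 56, and 10.96 after sham. In the whole lung the same series was 10.85, 10.19, 10.49, 10.82, 10.70 and 10.57, with 10.67 after sham. In the medial lobe it was 10.88, 10.63, 10.76, 10.91, 10.92 and 11.04, with 10.89 after sham. Within each region both early arrays lay below both controls, a pattern that 5.67% of all genes showed, while across regions the early and control arrays overlapped (10.14 to 10.76 against 10.67 to 10.96). The early difference was -0.43 ± 0.08 (SE, n = 6 against 6 arrays; limma adjusted p = 0.00247), or 1.35-fold lower. From day 14 the condition means were 10.81 ± 0.11, 10.81 ± 0.11 and 10.81 ± 0.23 (SD, n = 3), next to 10.87 ± 0.015 at day 0 and 10.84 ± 0.15 after sham.

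Fgf18, a mesenchymal ligand, had its lowest value of each lobe at day 7, whereas in the whole lung days 3 and 56 were lower still. Its log2 values at day 7 were 7.99 in the cardiac lobe, 8.56 in the whole lung and 8.87 in the medial lobe. The 6 control arrays lay between 8.99 and 9.17, above each of these, and in each region day 7 was below both controls. At day 3 the values were 8.71, 8.40 and 9.14 in the same order, so the medial lobe stayed within the control range. The early difference was -0.46 ± 0.11 (SE; limma adjusted p = 0.0130), or 1.37-fold lower. It missed the threshold with the lobes alone (-0.39, adjusted p = 0.0526) and with sham alone as the control (-0.45, adjusted p = 0.0560). The values of days 14 and 28 were back at 8.87 to 9.27, but at day 56 after pneumonectomy the whole lung had 8.36 and the lobes 8.83 and 9.20. The fall at day 7 against day 0 rested in part on the cardiac lobe array: without it the difference went from -0.60 to -0.39 and the limma adjusted p from 0.0311 to 0.184.

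Fgf9, made by mesothelium and epithelium in the developing lung, was the ligand called higher. On the day 3 arrays its log2 values were 6.18 in the medial lobe, 6.13 in the cardiac lobe and 6.08 in the whole lung, and on the day 7 arrays 5.97, 5.93 and 6.00. The control arrays ranged from 5.36 in the medial sham array to 6.01 in the whole lung sham array, so the groups overlapped. The early difference was 0.30 ± 0.08 (SE; limma adjusted p = 0.0187). It was no longer called without the medial lobe arrays of day 3 (adjusted p = 0.0542) or of sham (adjusted p = 0.0571). With day 0 alone as the control it was 0.25 (adjusted p = 0.115). The mean of Fgf9 lay at 5.91, under the median of all genes of 6.98.

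Fgf2, the basic FGF that stimulates fibroblasts and endothelium, and Fgf7, the keratinocyte growth factor, did not pass with all arrays. Early values of Fgf2 ran from 8.20 to 8.98 against 8.06 to 8.43 in controls, a difference of 0.28 ± 0.11 (SE; limma adjusted p = 0.0954). The highest of these, 8.98, was the cardiac lobe at day 3, where day 7 was back at 8.20. Without that cardiac lobe array of day 7, Fgf2 was called (0.35, adjusted p = 0.0339), and over all 21 fits that leave out 1 array the difference lay between 0.18 and 0.35. Early values of Fgf7 ran from 6.43 to 7.61 against 7.16 to 7.95, a difference of -0.46 ± 0.19 (SE; limma adjusted p = 0.109). Its lowest value, 6.43, was the cardiac lobe at day 7, and the next lowest of the 21 arrays was 6.86 in the whole lung at day 3. Without the cardiac lobe array of day 7 the Fgf7 difference was -0.25 (adjusted p = 0.271), and without the whole lung array of day 7 it was -0.63 and called (adjusted p = 0.0164). Within the cardiac lobe, each of these genes had 1 array far from the other 6.

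Fgf10 stood out for its level after sham surgery rather than after pneumonectomy. The 3 sham arrays gave 7.57 in the medial lobe, 7.91 in the cardiac lobe and 7.61 in the whole lung. At day 0 the same regions had 6.81, 7.33 and 6.95. The 15 arrays after pneumonectomy lay between 6.80 and 7.19, with a median of 7.04. Every sham array was above all 18 other arrays. The condition means were 7.70 ± 0.19 after sham and, in falling order, 7.13 ± 0.05 at day 14, 7.07 ± 0.07 at day 7, 7.03 ± 0.27 at day 0, 7.03 ± 0.06 at day 56, 7.01 ± 0.20 at day 28 and 7.00 ± 0.13 at day 3 (SD, n = 3), and the last 6 were not separated by their spread.

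Sham exceeded day 0 by 0.67 ± 0.09 (SE; limma adjusted p = 0.00206), or 1.59-fold, and Fgf10 was the single member called in that comparison, in which 0.381% of all genes were called. Day 56 after pneumonectomy was lower than day 56 after sham by 1.59-fold (-0.67 ± 0.09 SE; limma adjusted p = 0.00175; 0.336% of all genes called). Fgf10 was also lower than sham at day 3 (-0.70), day 7 (-0.63), day 14 (-0.57) and day 28 (-0.69), and it was the only member called at day 14 (0.0652% of all genes) and day 28 (0.186%). The call at day 14 was lost in 7 of the 21 fits that leave out 1 array, namely each array of day 14 and of sham and the whole lung array of day 3, with an adjusted p of up to 0.299 and a difference of -0.62 to -0.51. These comparisons share the sham arrays. With each array left out in turn, the difference of sham from day 0 lay between 0.60 and 0.77, with a highest adjusted p of 0.0268. Against day 0 alone the early arrays differed by 0.0071 ± 0.078 (SE; limma adjusted p = 0.959), so the early call named above rests on sham. When the lobes alone were fitted, sham against day 0 kept its size (0.67) with an adjusted p of 0.0887.

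Marker genes of some of the cell types were set beside the sham level of Fgf10. Of 10 fibroblast markers 0 were called between sham and day 0 (1 with an unadjusted p under 0.05 in limma), and their summed level was 13.33 to 13.54 after sham and 13.25 to 13.41 at day 0. Of 10 markers of T, NK and B cells 3 were lower after sham, where 0.381% of all genes were called in either direction. Their summed levels were 11.26 to 11.60 against 12.03 to 12.19. The 9 monocyte and macrophage markers gave 12.12 to 12.30 after sham, below the 12.35 to 12.53 of day 0, with 0 called (2 with an unadjusted p under 0.05 in limma). The 8 cardiac muscle markers gave 12.67 to 12.88 after sham against 12.22 to 12.59 at day 0, with 0 called (2 with an unadjusted p under 0.05). The 8 endothelial markers gave 13.67 to 14.30 after sham against 13.67 to 14.02 at day 0. Cldn5 differed most among them (0.44, limma adjusted p = 0.153), and Emcn went the other way (-0.17, limma adjusted p = 0.890). The part of these markers in the Fgf10 level was not tested.

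Among the receptors, Fgfr2 and Fgfr3 fell early. Fgfr3 had log2 values at day 3 of 9.14 in the medial lobe, 8.75 in the cardiac lobe and 8.49 in the whole lung. The matching day 0 values were 9.37, 9.38 and 9.18, and the sham values 9.32, 9.27 and 9.16. Day 7 gave 9.20, 9.04 and 8.95, and day 14 gave 9.10, 8.77 and 8.91. All 9 of these arrays were below both controls of their own region. By day 28 (9.41, 9.07 and 9.12) and day 56 (9.45, 9.18 and 9.26) the medial lobe and the whole lung had at least 1 value in or above their control range. The early difference of Fgfr3 was -0.35 ± 0.07 (SE; limma adjusted p = 0.00225), or 1.28-fold lower, and at day 14 it was -0.39 ± 0.09 against day 0 (adjusted p = 0.0594).

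Fgfr2, the receptor through which Fgf7 and Fgf10 reach the epithelium, had early values of 10.22 and 10.21 in the cardiac lobe at days 3 and 7, against 10.72 at day 0 and 10.74 after sham. In the whole lung it had 9.53 and 9.97 against 10.19 and 10.10. In the medial lobe it had 10.36 and 10.62 against 10.40 and 10.67. The early arrays were thus below both controls in the cardiac lobe and the whole lung, and day 7 in the medial lobe was between its controls. The early difference was -0.32 ± 0.08 (SE; limma adjusted p = 0.0122), or 1.25-fold lower. With the lobes alone it was -0.28 (adjusted p = 0.108), and with day 0 alone as control -0.29 (adjusted p = 0.0663).

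Fgfr1, which the mesenchyme carries in the developing lung, was 0.23 ± 0.08 higher early (SE; limma adjusted p = 0.0783), and Fgfr4 was 0.24 lower, at -0.24 ± 0.10 (adjusted p = 0.128), so neither passed with all arrays. Without 1 array the Fgfr1 difference lay between 0.13 (cardiac lobe array of day 7 left out) and 0.30, the latter called without the medial lobe array of day 7 (adjusted p = 0.0100). That of Fgfr4 lay between -0.15, without the cardiac lobe array of day 0, and -0.33, called without the medial lobe sham array (adjusted p = 0.0364). The Fgfr1 values of days 3 and 7 were 9.10 and 9.52 in the cardiac lobe and 9.33 and 9.24 in the whole lung, above all 6 control arrays (8.87 to 8.99). In the medial lobe they were 8.94 and 8.81, within or below that range. Fgfr4 was 7.76 and 7.79 in the cardiac lobe at day 0 and after sham and 6.99 to 7.28 in that lobe on the 5 days after pneumonectomy. In the medial lobe it ran from 7.25 to 7.51 on those days, against 7.24 and 7.39 in the controls. In the whole lung it ran from 7.15 to 7.47, which overlapped 7.41 at day 0 and lay below 7.88 after sham. The whole lung sham array was thus 0.47 above day 0. In no member did the early arrays exceed both controls of their own region in all 3 regions, as 4.93% of all genes did, and Fgf2, Fgf9 and Fgfr1 did so in 2.

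**Figure D2:**
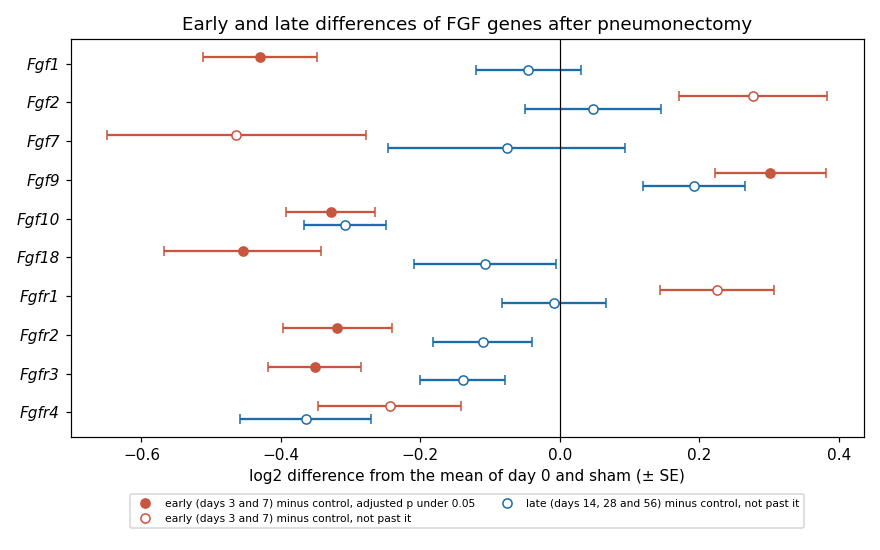
Difference of the early (red) and late (blue) arrays from the mean of day 0 and sham for each of the 10 genes, in log2 units with standard errors from limma; filled points passed an adjusted p under 0.05. Of the early differences 6 are filled, from -0.46 for Fgf18 to 0.30 for Fgf9, and none of the late ones is.

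In the late phase 0 of the 10 members passed (limma; 4 had an unadjusted p under 0.05), and 0.015% of all genes did. The largest late difference was that of Fgfr4, at -0.36 ± 0.09 (SE; adjusted p = 0.202). Fgf10 followed at -0.31 ± 0.06 (adjusted p = 0.0744), again through the sham arrays. Fgf1, Fgfr1 and Fgf2 had late differences of -0.05, -0.01 and 0.05. Without the cardiac lobe array of day 7, Fgf10 was called late, in a fit that called 38 genes against 3 with all arrays.

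By single day against day 0, 3 members passed at day 3 (6.7% of all genes) and 2 at day 7 (8.69%). At day 3 these were Fgfr3 at -0.52 ± 0.09 (SE; limma adjusted p = 0.00309), Fgf1 at -0.48 ± 0.12 (adjusted p = 0.0193) and Fgfr2 at -0.40 ± 0.11 (adjusted p = 0.0372). At day 7 they were Fgf1 at -0.41 ± 0.12 (adjusted p = 0.0425) and Fgf18. At days 14, 28 and 56 none passed in limma (1.2%, 0% and 0.0903% of all genes), with 2, 0 and 0 members at an unadjusted p under 0.05. Against sham, 5 members passed at day 3 (7.67%): Fgf9 was higher, and Fgf1, Fgf10, Fgfr2 and Fgfr3 were lower. At day 7 Fgf10 and Fgf18 passed against sham (4.52%).

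Several of these daily calls were lost when 1 array was left out. The 3 calls at day 3 against day 0 went to 1 when the cardiac lobe or whole lung array of day 0 or of day 3 was left out, and the remaining call was Fgfr3 in each case. The 2 calls at day 7 against day 0 went to 0 without the cardiac lobe or whole lung array of day 0 or the cardiac lobe array of day 7. Without that last array the Fgf1 difference at day 7 went from -0.41 to -0.25. In the fits just named the calls over all genes fell as well. At day 3 they went from 1336 to between 664 and 749, and at day 7 from 1733 to between 491 and 547. Fgf18 at day 7 against sham lost its call in 16 of the 21 fits that leave out an array. Where the array left out was of another condition, the difference stayed at -0.59. The limma adjusted p of these lost calls was 0.0507 to 0.0609, just past the threshold. Where it was an array of day 7 or of sham, the lost calls had a limma adjusted p of 0.0502 to 0.256. The difference was then -0.70 to -0.38, the latter without the cardiac lobe array of day 7. In the early comparison Fgf1, Fgf10, Fgf18, Fgfr2 and Fgfr3 were called in all 21 of these fits. Without the region term (no replicate block), which ties the arrays of a region together, 3 members were called early, namely Fgf1, Fgf10 and Fgfr3. Without both arrays that stood apart, 7 were called early, Fgf2 among them, 4 at day 3 and 0 at day 7 against day 0, and Fgfr3 was then called at day 14. Shares over all genes are not given for either of these fits, so the changed counts are not results about the members. With the cardiac lobe array of day 7 alone left out, calls over all genes against day 0 went from 1733 to 529 at day 7. At day 14 they went from 240 to 472.

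The early differences were of unequal size among regions. In the cardiac lobe Fgf1 (-0.68, limma adjusted p = 0.00343), Fgfr2 (-0.51, 0.0309) and Fgfr4 (-0.54, 0.0318) passed, where 5.78% of all genes did. In the medial lobe (0.0301% of all genes) and in the whole lung (0.938%) 0 members passed (1 and 7 with an unadjusted p under 0.05). For Fgf18 the difference was -0.14 in the medial lobe, -0.64 in the cardiac lobe and -0.58 in the whole lung. For Fgfr1 it was 0.00, 0.38 and 0.30 in that order, and for Fgf9 0.55, 0.26 and 0.09. The difference between the cardiac and the medial lobe was itself tested, and 0 members and 0% of all genes passed in limma (4 members had an unadjusted p under 0.05). The smallest unadjusted p was that of Fgfr4, at -0.68 ± 0.19 (SE; adjusted p = 0.964). Without the cardiac lobe array of day 3, many genes of the array were called where none had been, Fgf7 and Fgfr1 among them. These calls were thus not particular to the members. That fit has 1 early array in the cardiac lobe, the day 7 array that stood apart, and assumes that it varies like the other groups.

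**Figure D3:**
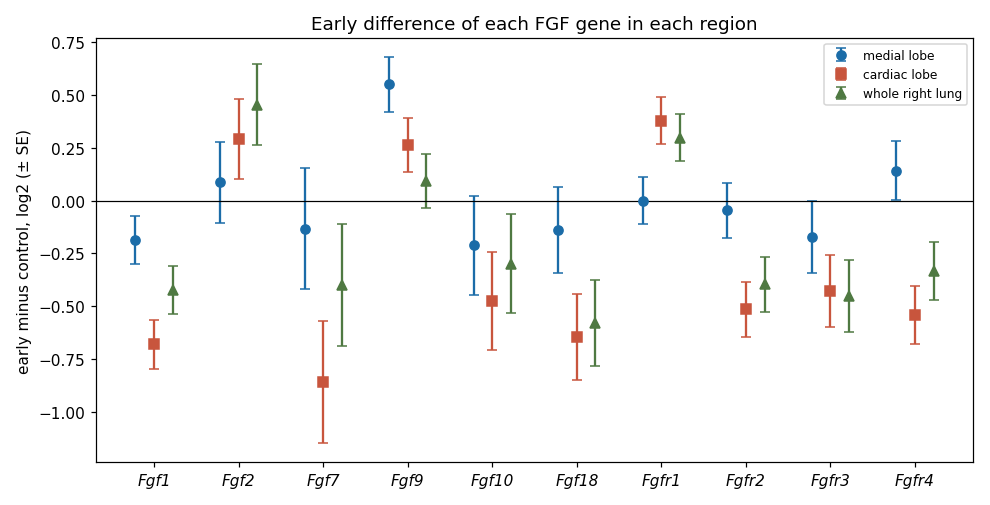
Early minus control difference of each FGF gene within the medial lobe (circles), the cardiac lobe (squares) and the whole right lung (triangles), in log2 units with standard errors from limma (2 early and 2 control arrays per region). For all genes but Fgf9 the cardiac lobe point lies farther from 0 than the medial lobe point, from -0.86 for Fgf7 to 0.38 for Fgfr1, but no difference between the lobes passed its own test.

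By region alone, Fgfr2 was higher in the lobes than in the whole lung. Its 7 whole lung arrays ran from 9.53 to 10.19 and its 14 lobe arrays from 10.21 to 10.74, so they did not overlap, though the nearest were almost equal. The share of all genes without such overlap was not computed. The difference was 0.56 ± 0.06 (SE; limma adjusted p = 4.75e-05), in a comparison in which 29.1% of all genes were called. Fgfr3 differed by 0.16 ± 0.05 (adjusted p = 0.0310), which fell to 0.11 (adjusted p = 0.149) with arrays centred on their medians. Of 10 alveolar type II markers 9 were higher in the lobes and of 8 endothelial markers 7, and the summed type II level was 14.92 to 15.41 in the whole lung and 15.45 to 15.78 in the lobes. The small RNA genes were higher in the whole lung than on all lobe arrays but the cardiac one of day 7, as given above, and array interquartile ranges were 3.39 to 3.76 there and 3.55 to 3.86 in the lobes. The part of these markers and array measures in the Fgfr2 level was not tested. Without the cardiac lobe array of day 7, Fgf1, Fgf7, Fgf18 and Fgfr1 were called between lobes and whole lung as well, 6 members in all. That fit also called more genes of every kind, 8113 of 19938 against 5794 with all arrays. Fgfr3 lost its call in this comparison in 4 of the 21 fits that leave out 1 array. These left out the whole lung array of day 0 or day 3, or the cardiac lobe or whole lung array of sham. Between the cardiac and the medial lobe 0 members passed (5 with an unadjusted p under 0.05 in limma; 0.0903% of all genes called).

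Cell type markers moved with the early arrays. Over all genes 7.72% were called lower early and 6.44% higher. In bulk tissue, fewer cells of a type and less RNA per cell cannot be told apart. Of 8 alveolar type I markers 6 were lower early (limma), with summed levels of 14.10 to 14.60 against 14.51 to 14.67 in controls. Of 10 type II markers 4 were lower (14.92 to 15.67 against 15.36 to 15.71) and of 8 endothelial markers 3 (13.03 to 13.87 against 13.67 to 14.30). Of 8 cardiac muscle markers 7 were lower (11.38 to 12.38 against 12.22 to 12.88), and of 10 markers of T, NK and B cells 8 (10.77 to 11.42 against 11.26 to 12.19). Higher were 7 of 9 monocyte and macrophage markers (12.50 to 13.80 against 12.12 to 12.53), 7 of 8 mesothelial markers (13.22 to 13.85 against 13.02 to 13.51) and 5 of 10 fibroblast markers (13.51 to 14.42 against 13.25 to 13.54). Of 7 smooth muscle markers 0 were called (0 with an unadjusted p under 0.05), and of 7 club and ciliated markers 1 was lower. Their part in the differences of Fgf1, Fgf9, Fgf18, Fgfr2 and Fgfr3 was not tested.

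Other genes of the pathway moved in both directions early, again by limma over all genes, of which 14.2% passed. The 16 other FGF ligands held 0 calls (4 with an unadjusted p under 0.05), with a median difference of 0.13. Those nearest to passing were Fgf22, at 0.24 ± 0.08 (SE; adjusted p = 0.0520), and Fgf16, at 0.30 ± 0.10 (adjusted p = 0.0605). Their values, 5.83 to 6.55 and 4.90 to 5.95, lay under the median of all genes of 6.98.

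Of 24 measured coreceptors and extracellular modulators 8 passed (14.2% of all genes did), 4 in each direction, and their median difference was -0.02. Flrt2, a membrane protein that binds FGF receptors, rose the most. Its log2 values at day 3 were 10.17 in the medial lobe, 10.26 in the cardiac lobe and 10.61 in the whole lung, and at day 7 9.54, 10.02 and 9.87. The controls lay between 8.97 and 9.53, below every early array. The difference was 0.86 ± 0.08 (SE; limma adjusted p = 7.71e-06), and the late difference 0.29 ± 0.07 (adjusted p = 0.201). Sdc3, a heparan sulfate carrier of the syndecan family, rose by 0.51 ± 0.15 (adjusted p = 0.0332). Against day 0 it was 1.19 higher in the whole lung at day 3 and 0.84 higher in the cardiac lobe at day 7. On the other early arrays it was 0.09 to 0.40 higher.

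Fgfbp1, a protein that releases FGF from the matrix, fell. Its 6 early arrays ran from 6.04 to 6.628, all below the control arrays at 6.632 to 7.41, though the nearest of them were almost equal. The difference was -0.56 ± 0.12 (SE; limma adjusted p = 0.00483). Sham itself differed from day 0 by -0.58 in the medial lobe and the whole lung and by -0.05 in the cardiac lobe. Against sham, days 3 and 7 differed by -0.0054 and -0.21 in the whole lung and by -0.36 and -0.19 in the medial lobe. In the cardiac lobe they differed from sham by -0.62 and -0.76. Flrt3, a relative of Flrt2, was called lower as well, with a difference of -0.49 ± 0.10 (adjusted p = 0.00375). Its mean was 9.02 ± 0.21 at day 0 and 9.41 ± 0.36 after sham, against 8.84 ± 0.50 at day 3 and 8.60 ± 0.63 at day 7 (SD, n = 3). Against day 0 alone neither day passed (-0.18, limma adjusted p = 0.548, and -0.42, adjusted p = 0.0758), and in the medial lobe both early arrays were above day 0, by 0.15 and 0.14. Across all genes, 2.33% had every early array above every control and 1.49% had every one below.

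Inside the cell, 2 of 14 measured adaptors and cascade members passed and both fell. That count is near the share over all genes, of which 14.2% passed. Gab1, a docking protein, differed by -0.28 ± 0.08 (SE; limma adjusted p = 0.0298) and Plcg1, a phospholipase that receptors activate, by -0.28 ± 0.06 (adjusted p = 0.00715). The lowest Gab1 value, 9.36, was on the cardiac lobe array of day 7 that stood apart. In the whole lung Gab1 differed from day 0 by -0.01 at day 3 and -0.15 at day 7. Of 18 feedback inhibitors and targets 4 passed (14.2% of all genes did), 2 in each direction. Spry1, a Sprouty inhibitor of the cascade, had its lowest value, 8.54, in the whole lung at day 3, and differed early by -0.44 ± 0.09 (limma adjusted p = 0.00361). Its mean was 9.57 ± 0.23 at day 0 and 9.85 ± 0.40 after sham, against 9.12 ± 0.52 at day 3 and 9.42 ± 0.37 at day 7 (SD, n = 3). In the medial lobe it differed from day 0 by -0.08 at day 3 and 0.22 at day 7. Etv5, an ETS factor that FGF induces and that is also a type II marker, differed early by -0.36 ± 0.10 (limma adjusted p = 0.0202), and by 0.0090 in the medial lobe. Spry3 was called higher (0.26 ± 0.06, adjusted p = 0.0139) through day 3 alone, with a mean of 4.82 ± 0.28 at day 3 and 4.29 ± 0.03 at day 7, against 4.33 ± 0.03 at day 0 and 4.26 ± 0.07 after sham (SD, n = 3). Spred3 rose by 0.23 ± 0.07 (adjusted p = 0.0326). Both genes were dim, Spry3 at 4.17 to 5.12 and Spred3 at 5.41 to 5.99, under the median of all genes of 6.98. In the late phase none of the genes of these 4 lists passed.

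**Figure D4:**
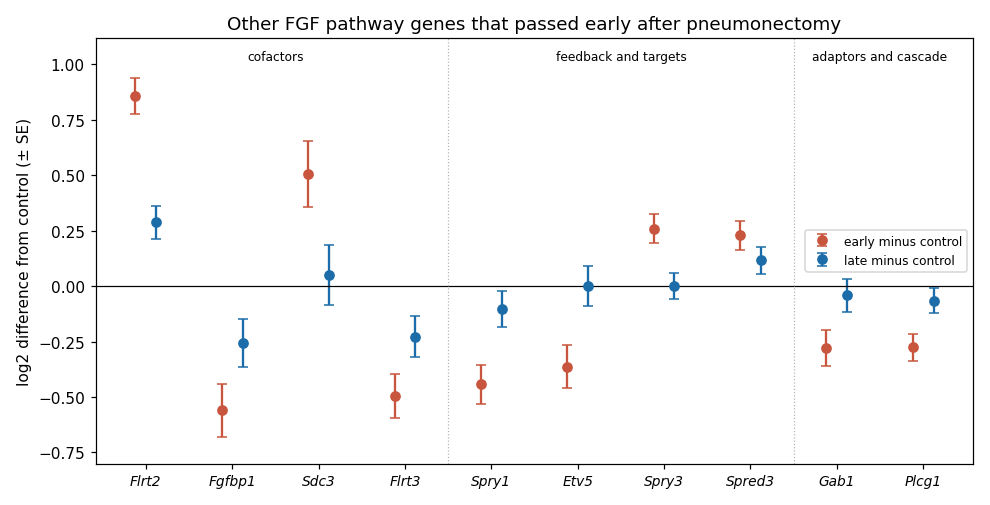
Early (red) and late (blue) difference from the mean of day 0 and sham, in log2 units with standard errors from limma, for up to 4 genes of each pathway list that passed early. Flrt2 rose by 0.86 and Fgfbp1 fell by 0.56 early, and all 10 late points lie nearer to 0 than the early ones.

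Genes with patterns most like those of the 3 members that passed the F test were found by Pearson correlation over the 21 arrays, after the mean of each region was subtracted; these arrays share their normalization. For Fgf1 they were Phactr1 (r = 0.944), Tprgl (r = 0.937) and Tmem245 (r = 0.927). For Fgf10 they were Efnb1 (r = 0.905), Flywch1 (r = 0.862) and Lipg (r = 0.847). Efnb1, the ligand ephrin-B1, had a mean of 9.33 ± 0.32 after sham, 8.90 ± 0.30 at day 0 and 8.68 ± 0.25 at day 56 after pneumonectomy (SD, n = 3). For Fgfr3 they were Klf15 (r = 0.891), Otud1 (r = 0.866) and Tent5b (r = 0.856). Klf15, a zinc finger transcription factor, had means of 8.83 ± 0.11 at day 0, 7.77 ± 0.32 at day 3, 7.98 ± 0.15 at day 7, 7.75 ± 0.21 at day 14 and 8.68 ± 0.09 at day 56, with 8.55 ± 0.11 after sham (SD, n = 3).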

How the data were processed

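The deposited table holds a log2 value for each of 35556 probe sets on 21 arrays, made by the authors with RMA per the submitters' processing notes. The version of RMA is not given in the sources used here. This step scales the arrays to each other, so values are relative, and precision is limited by how few arrays there are. Per the labels' protocols the RNA was amplified from its 3′ end, yet the annotation belongs to an array for whole transcripts, so the chemistry is not settled. Of the probe sets, 21789 carried a single symbol in the platform annotation, and the probe set with the highest mean stood for each of 19938 genes.

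Condition and region were fitted additively with limma 3.58.1 (R 4.3.3; 21 arrays, 12 residual degrees of freedom), with Benjamini-Hochberg adjustment over all genes and a threshold of 0.05. The region, which is also the replicate number, was kept as a block: deviations from condition means of arrays of the same region correlated with medians of 0.30 to 0.46, against -0.24 between regions. Early differences by region came from a fit of region by phase means. Errors are standard errors of the fit unless SD is stated. Folds are 2 to the power of the log2 difference. Summed marker levels are log2 of the sum of linear values. The procedure was tested on simulated data.

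All members were described. Up to 4 passing genes by size were named from each pathway list, or the 2 with the smallest p, and for each member that passed the F test the 3 genes most like it. Some genes of the pathway lists were not analysed here, and counts are over the members measured. The members and lists were chosen with earlier results of these data known. Alternatives were no region term, other probe set rules, a filter on dim genes, another prior, other scalings, fewer regions or arrays, and, added after seeing the data, each control alone.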

Additional observations from a re-analysis of the deposited data

Results flagged for a closer look

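Within each region, the highest and lowest of the 7 arrays of each member were compared with their nearest neighbour (Dixon's test with a critical ratio of 0.568, 30 tests of member and region). In 9 of the 30 a value stood far from the others. The 7 arrays of a region are 7 conditions, so a difference between conditions can also give a flag. The 30 tests share arrays, and the share of flags over all genes was not computed.

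The sham array was far above the others for Fgf10 in all 3 regions, at 7.57 in the medial lobe, 7.91 in the cardiac lobe and 7.61 in the whole lung, where the next highest values were 7.13, 7.33 and 7.09. At day 7, Fgf18 was far below the others in the medial lobe (8.87, next 9.13) and in the cardiac lobe (7.99, next 8.71). The same cardiac lobe array of day 7, which also stood apart over all genes, was low for Fgf7 (6.43, next 7.61) and high for Fgfr1 (9.52, next 9.10). The cardiac lobe array of day 3 was high for Fgf2 (8.98, next 8.43). The whole lung array of day 3 was low for Fgfr2 (9.53, next 9.95).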

How the results depend on the processing

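Counts are of FGF members called by limma. Shares over all genes are not given for the fits of this paragraph. A change in a count is therefore not a result about the members. Without the region term (no replicate block), the early count went from 6 to 3, the F test from 3 to 1, day 3 against day 0 from 3 to 0 and against sham from 5 to 1, day 7 from 2 to 0 and from 2 to 1, and days 14 and 28 against sham from 1 to 0. With the lobes alone, the F test, sham against day 0, day 3 against day 0, and days 14, 28 and 56 against sham gave 0, day 3 against sham 2, and day 7 gave 1 against either control. With only the arrays compared, day 3 against sham gave 2, and day 3 against day 0, day 7 against either control, and days 14, 28 and 56 against sham gave 0. Without the 2 arrays that stood apart, day 14 against day 0 went from 0 to 1, day 7 to 0 against day 0 and 1 against sham, and lobes against whole lung from 2 to 4. Median centring left 1 at day 7 against day 0, and quantile normalization left 1 at day 7 against sham. With day 0 alone as the control, 3 were called early and the Fgf10 difference turned from -0.33 to 0.0071. With sham alone, 1 was called late.

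With each array left out in turn, the counts ranged from 5 to 7 early, 0 to 1 late, 2 to 4 in the F test, 1 to 3 and 2 to 6 at day 3 against day 0 and sham, 0 to 3 and 1 to 4 at day 7, and 0 to 1 at day 14 against either control. They ranged from 1 to 6 between lobes and whole lung and from 0 to 2 for the cardiac against the medial early response. They stayed at 1 for sham against day 0 and for days 28 and 56 against sham, and at 0 for days 28 and 56 against day 0, the cardiac against the medial lobe and the whole lung early response. The mean of probe sets, every probe set, the trend prior and the dim filter, which left out Fgf9, moved no count by over 1.5 times. Calls over all genes moved as well when arrays were left out. This is given above for the daily calls, lobes against whole lung, and the cardiac against the medial early response. Each member has 1 probe set, so the alternative of a second probe set was not run. The cause was not tested.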
